A study of Mus musculus with 4 samples.

Results

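The genes described here encode enzymes of drug and foreign-compound metabolism, measured in the frontal cortex of mice given 1 of 4 antipsychotic drugs. They were chosen by symbol alone, as all genes on the array of the cytochrome P450 (Cyp, without Cyp51), flavin-containing monooxygenase (Fmo), glutathione S-transferase (Gst, classes a, k, m, o, p and t), UDP-glucuronosyltransferase (Ugt) and sulphotransferase (Sult) families. The rule gave 115 of 16504 named genes, 72 of phase I (67 Cyp and 5 Fmo) and 43 of phase II (19 Gst, 11 Ugt and 13 Sult). A pair of these symbols belong to no enzyme, the pseudogene Cyp4f41-ps and the antisense RNA Cyp4x1os; both were kept under the rule and counted with phase I.

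Male ddY mice, an outbred laboratory stock, were 13 weeks old, weighed 38 to 43 g, and were injected intraperitoneally with 1 dose a day for 28 days. Chlorpromazine and thioridazine were given at 25 mg/kg, olanzapine at 1.25 mg/kg and quetiapine at 18.75 mg/kg; the injection fluid was saline with dilute acetic acid, made from acetic anhydride, and mice injected with vehicle were the controls. Each drug has 1 dual-colour Agilent array, with vehicle RNA labelled with cyanine 3 and drug RNA with cyanine 5, in the same orientation throughout. The sources used here give neither the number of mice behind an array nor whether a single vehicle RNA served on all 4, so the arrays may share their control. Values are log2 ratios, likely of drug over vehicle, so that 1 is 2-fold above vehicle and -1 is 2-fold below. That direction and the log10 scale of the deposited table are the likely readings and are not stated for the table itself. The table holds no signal intensities: the level of an enzyme in cortex, and whether its probe was above background, is unknown, and the tissue could not be checked by marker levels.

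Phase I enzymes put a reactive group on a compound, most often by oxidation. P450s do this with a haem iron and electrons from P450 reductase, and flavin-containing monooxygenases with a bound flavin. Phase II enzymes then attach glutathione, glucuronic acid or sulphate, which makes the product easier to excrete. In the liver many of these genes answer to receptors that sense foreign compounds, namely the aryl hydrocarbon receptor (Ahr), the pregnane X receptor (Nr1i2) and the constitutive androstane receptor (Nr1i3). In the brain the better known members act on the body's own molecules, such as cholesterol, steroids, retinoic acid, fatty acids, catecholamines and the lipids of myelin. In humans CYP2D6 metabolises chlorpromazine and thioridazine, CYP1A2 olanzapine and CYP3A4 quetiapine, and the mouse Cyp2d, Cyp1a and Cyp3a genes are their relatives.

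Promoters are shown for 4 members whose ratios the results below turn on: Cyp1b1, Cyp1a2 and Gsta1, genes known to answer to the aryl hydrocarbon receptor, and Cyp3a13, a relative of the main target of the pregnane X receptor. Each window runs from 250 bases before to 50 after a RefSeq start (GRCm38.p6), 5′ to 3′ on the gene's strand. Capitals mark the core letters GCGTG of the xenobiotic response element or the half-site letters AGTTCA of the pregnane X receptor, each on either strand; no matches overlapped.
Cyp1b1, chr17:79715012-79715311, minus strand: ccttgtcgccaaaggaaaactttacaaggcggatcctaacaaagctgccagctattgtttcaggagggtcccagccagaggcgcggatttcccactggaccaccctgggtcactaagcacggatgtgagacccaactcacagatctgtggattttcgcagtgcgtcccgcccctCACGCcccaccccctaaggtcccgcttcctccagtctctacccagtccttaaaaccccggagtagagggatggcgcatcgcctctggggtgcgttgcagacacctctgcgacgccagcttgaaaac
Cyp1a2, chr9:57683606-57683905, minus strand: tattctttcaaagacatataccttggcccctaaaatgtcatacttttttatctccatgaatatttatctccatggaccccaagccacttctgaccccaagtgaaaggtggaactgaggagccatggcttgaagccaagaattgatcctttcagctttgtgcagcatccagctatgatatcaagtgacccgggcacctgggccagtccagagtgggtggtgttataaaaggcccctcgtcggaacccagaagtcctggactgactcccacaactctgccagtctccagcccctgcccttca
Gsta1, chr9:78230419-78230718, plus strand: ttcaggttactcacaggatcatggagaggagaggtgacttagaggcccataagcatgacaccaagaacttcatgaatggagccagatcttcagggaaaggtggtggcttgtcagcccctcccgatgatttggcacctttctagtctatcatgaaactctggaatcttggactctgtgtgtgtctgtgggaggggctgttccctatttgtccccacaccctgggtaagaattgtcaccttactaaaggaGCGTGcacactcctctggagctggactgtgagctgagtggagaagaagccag
Cyp3a13, chr5:137921570-137921869, minus strand: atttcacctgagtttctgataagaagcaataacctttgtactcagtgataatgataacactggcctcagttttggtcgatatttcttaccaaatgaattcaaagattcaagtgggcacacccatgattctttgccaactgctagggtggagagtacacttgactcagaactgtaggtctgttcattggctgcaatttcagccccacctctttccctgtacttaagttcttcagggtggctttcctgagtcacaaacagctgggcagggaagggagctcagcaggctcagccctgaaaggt
The Cyp1b1 and Gsta1 windows each hold 1 copy of GCGTG (in Cyp1b1 it is read as CACGC, on the other strand), and the Cyp1a2 and Cyp3a13 windows hold neither motif. Over the 110 windows that matched 92 of the members, 20.9% held GCGTG, against 32.4% of all 32851 windows. AGTTCA was in 13.6% of the members' windows and in 13.99% of all. A match is a description of letters only.

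Between 111 and 114 members had a ratio on each array, and 110 had 1 on all 4. Cyp1a1 was listed at exactly 0, taken as not measured, on every array. Fmo9 and Cyp2e1 had a ratio with olanzapine alone, and Cyp2j6 and Cyp4f41-ps each lacked 1 array. With 1 array per drug no drug can be tested alone. The SD of the log2 ratios over all genes was lowest with chlorpromazine at 0.33 and highest with olanzapine at 0.59, with 0.47 for thioridazine and 0.43 for quetiapine. Repeat spots of 48 accessions gave a median SD of 0.06 on the chlorpromazine array, 0.16 on the thioridazine and olanzapine arrays and 0.10 on the quetiapine array; this is spread within an array and holds no difference between animals.

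The 2 phases had nearly the same median on every array. With chlorpromazine the median log2 ratio was 0.07 for phase I and 0.06 for phase II; with thioridazine it was 0.04 and 0.06, with olanzapine 0.06 and 0.03, and with quetiapine 0.12 and 0.12. The difference between the phases was at most 0.03, and reached 0.07 with thioridazine and olanzapine when each feature was counted singly. Counted so, the gene Gsta4 alone enters phase II as 10 features, all below 0 on both of those arrays. The median over all genes was 0.01 with chlorpromazine, thioridazine and quetiapine and 0.02 with olanzapine, so the members' medians lay 0.04 to 0.12 above 0 where those of all genes lay close to it. With quetiapine 79 of 111 members were above 0, made up of 54 of 68 phase I and 25 of 43 phase II members, while 8273 of 16240 genes were above 0.

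**Figure D1:**
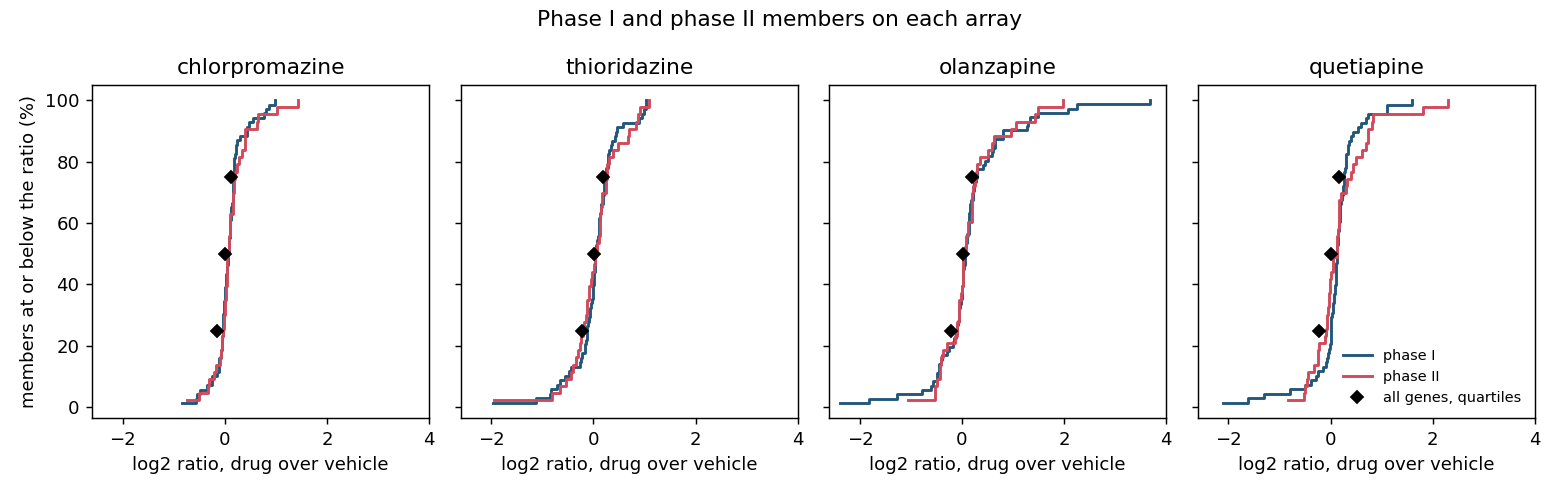
Share of phase I and phase II members (y axis, %) at or below each log2 ratio of drug over vehicle (x axis) on each array; diamonds are the quartiles of all genes. The curves of the 2 phases cross near the middle, with medians between 0.03 and 0.12, and part mainly in the tails.

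Between 2 and 15 members were at least 2-fold from vehicle on an array. With chlorpromazine they numbered 2 of 112 (1.79%, against 1.69% of all genes), with thioridazine 6 of 111 (5.41%, against 4.52%), with olanzapine 15 of 114 (13.2%, against 7.97%) and with quetiapine 8 of 111 (7.21%, against 3.74%). These shares come from single arrays and have no test. With arrays scaled to one spread chlorpromazine had 7 members (6.25%, against 3.86% of all genes) and thioridazine 3 (2.7%, against 3.5%), so their order depends on the scale. Both with chlorpromazine were above vehicle, where 0.795% of all genes were above and 0.899% below. With thioridazine 3 were above and 3 below, against 1.98% and 2.54% of all genes. Of the 15 with olanzapine 11 were above vehicle and 4 below, while 4.64% of all genes were above and 3.33% below. With quetiapine 5 were above and 3 below, against 1.43% and 2.31%. By phase, 10 of 71 phase I and 5 of 43 phase II members were 2-fold from vehicle with olanzapine, and 6 of 68 and 2 of 43 with quetiapine. In all 23 members were 2-fold from vehicle on some array, 15 of phase I and 8 of phase II; 17 were so on 1 array, 4 on 2, 2 on 3 and 0 on all 4. The other 92 were 2-fold on none. The same counts were not made over all genes, so these numbers of arrays per member have no background share.

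**Figure D2:**
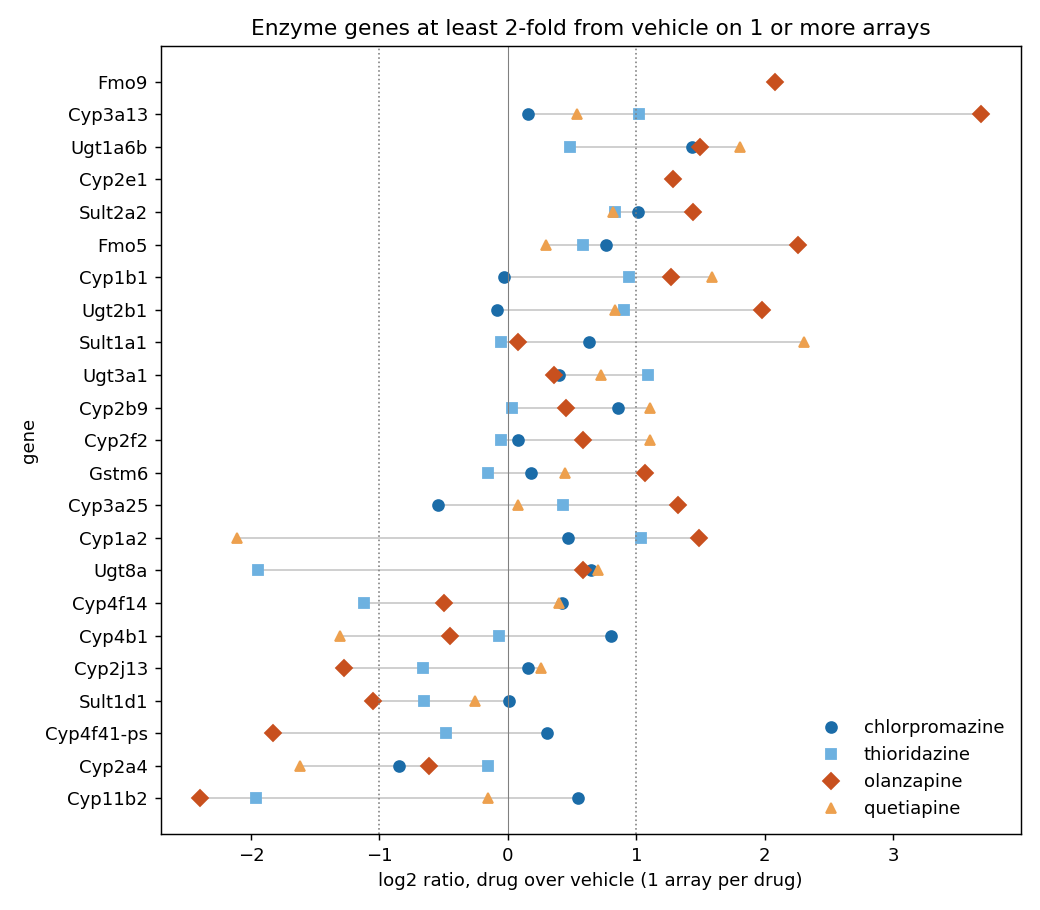
Log2 ratio of drug over vehicle (x axis) for the 23 members at least 2-fold from vehicle on an array, with 1 point per drug and array; dotted lines mark 2-fold. Cyp3a13 with olanzapine reaches 3.69, and Cyp1a2 (-2.11 with quetiapine) and Ugt8a (-1.95 with thioridazine) each lie above 0 on the other 3 arrays.

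The Cyp1 genes oxidise flat aromatic compounds and are the classical targets of the aryl hydrocarbon receptor. Cyp1b1, which is also expressed in cells of blood vessels, had log2 ratios of -0.03 with chlorpromazine, 0.94 with thioridazine, 1.27 with olanzapine and 1.59 on the quetiapine array, the last 3.01-fold above vehicle. It lay near vehicle on the chlorpromazine array and well above on the others, and with quetiapine it ranked 48 from the top of 16240 genes. Cyp1a2, whose human relative clears olanzapine, was at 0.47 with chlorpromazine, 1.04 with thioridazine and 1.49 with olanzapine, and at -2.11 with quetiapine. On the quetiapine array the pair thus lay on opposite sides of vehicle, Cyp1b1 3.01-fold above and Cyp1a2 4.32-fold below, where Cyp1a2 ranked 27 from the bottom. The receptor gene Ahr was at -0.29, -0.76, -0.74 and -0.12 in the order chlorpromazine, thioridazine, olanzapine and quetiapine, and the gene of its repressor, Ahrr, at 0.29, -0.05, 0.54 and 1.28. Other genes known to answer to Ahr, set side by side with the values known, were Ugt1a6b, described below, Gsta1 at 0.03, 0.30, -0.43 and -0.46, and the quinone reductase Nqo1 at 0.13, 0.32, 0.12 and 0.35. Nqo1 and Ugt1a6b were above vehicle on each array and Ahr below on each, while Cyp1a2 and Gsta1 lay on both sides. Cyp1b1 was below 0 only with chlorpromazine, at -0.03, and Ahrr only with thioridazine, at -0.05. Both values lay within the median SD of repeat spots on their arrays (0.06 and 0.16).

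The Cyp3a genes, relatives of the human enzyme that clears quetiapine, number 5 here. With olanzapine 2 of them were at least 2-fold above vehicle and 3 above 0; with quetiapine 0 were 2-fold above and 5 above 0. That difference was not tested. Over all genes 4.64% were at least 2-fold above vehicle with olanzapine and 1.43% with quetiapine. Above 0 were 52.2% of all genes with olanzapine and 50.9% with quetiapine. Cyp3a13 had the highest ratio of any member, 3.69 with olanzapine, which is 12.9-fold above vehicle and the sixth highest, rank 6, of 16435 genes. On the other arrays it was at 0.16 with chlorpromazine, 1.02 with thioridazine and 0.54 with quetiapine. Cyp3a25 was at 1.33 with olanzapine and at -0.54, 0.43 and 0.08 with chlorpromazine, thioridazine and quetiapine. Cyp3a11, the main liver member of the subfamily, was at 0.80 with olanzapine and at 0.07, 0.31 and 0.28 on the same other arrays. Cyp3a16 and Cyp3a41a lay between -0.06 and 0.24 on all 4 arrays. The pregnane X receptor gene Nr1i2 was also highest with olanzapine, at 1.04, against 0.12 with chlorpromazine, 0.62 with thioridazine and 0.42 with quetiapine. So was the constitutive androstane receptor gene Nr1i3, at 0.34, against -1.08 with chlorpromazine, 0.17 with thioridazine and -0.58 with quetiapine. Other regulators of drug-metabolism genes peaked elsewhere, among them Hnf4a at 0.30 with quetiapine (0.20 with olanzapine) and Rxra at 0.32 with thioridazine (0.06 with olanzapine). Nr3c1 was lowest with olanzapine, at 0.02, while Arnt at 0.25 and Nr1h4 at 0.29 were also highest there. A link of any regulator to the Cyp3a ratios was not tested. Genes of the Cyp3a subfamily are close in sequence, and the probes' letters are not in the files, so cross-hybridisation within it was not tested.

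Cyp2d genes, relatives of the human enzyme of chlorpromazine and thioridazine, had 5 measured members. Cyp2d9 and Cyp2d10 were between -0.05 and 0.13 on all arrays. Cyp2d26 averaged between -0.08 and 0.07, from 2 features on opposite sides of 0 on every array. Cyp2d12 was at -0.49 with chlorpromazine, -0.12 with thioridazine, 0.21 with olanzapine and -0.28 on the quetiapine array. Cyp2d34 was at 0.44 with chlorpromazine, 0.997 with thioridazine, 0.80 with olanzapine and 0.69 on the quetiapine array, above vehicle on each. Among the other Cyp2 genes, Cyp2a4, a testosterone hydroxylase in mouse, lay below vehicle on each array, at -0.84, -0.16, -0.61 and -1.62 in the order chlorpromazine, thioridazine, olanzapine and quetiapine. Cyp2j13, of a subfamily that oxidises arachidonic acid, was at -1.28 with olanzapine, -0.66 with thioridazine, 0.16 with chlorpromazine and 0.26 with quetiapine. Its 2 features had -1.34 and -1.22 with olanzapine. The related Cyp2j5 was on the other side there, at 0.64, and at -0.56 with chlorpromazine, 0.21 with thioridazine and -0.79 with quetiapine. Brain-expressed Cyp2j9 lay between -0.45 and 0.23 on the arrays, and Cyp2s1 between -0.15 and 0.10. Cyp2b9 at 1.10 with quetiapine, Cyp2f2 at 1.10 with quetiapine, Cyp2e1 at 1.29 with olanzapine and the transferase Gstm6 at 1.07 with olanzapine complete the members at least 2-fold above vehicle; these 4 are named for their values.

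Of the flavin-containing monooxygenases, Fmo5 had 0.76 with chlorpromazine, 0.58 with thioridazine, 2.26 with olanzapine and 0.30 on the quetiapine array; the olanzapine value is 4.80-fold above vehicle. Fmo9 was at 2.08 with olanzapine, the one array on which it had a ratio. Fmo1, Fmo2 and Fmo4 lay between 0.04 and 0.22 on every array. The Cyp4 genes hydroxylate fatty acids and their signalling derivatives. Cyp4f14 was at 0.43, -1.12, -0.50 and 0.40 with chlorpromazine, thioridazine, olanzapine and quetiapine, and its neighbour in the family Cyp4f15 at 0.98, 0.24, -0.04 and 0.74. Cyp4b1 ran from 0.80 with chlorpromazine through -0.07 and -0.45 with thioridazine and olanzapine to -1.31 with quetiapine. The pseudogene Cyp4f41-ps was at -1.83 with olanzapine, and Cyp4f18 stayed between -0.01 and 0.26.

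P450s of sterol, steroid and vitamin metabolism, the 15 members from Cyp7 to Cyp46, had medians of at most 0.04 on the 4 arrays, none below 0. Cyp46a1, which turns cholesterol into 24S-hydroxycholesterol in neurons and so lets it leave the brain, was at 0.11 with chlorpromazine, -0.0035 with thioridazine, -0.25 with olanzapine and -0.24 on the quetiapine array. Cyp7b1, which hydroxylates oxysterols and neurosteroids, had -0.83 with thioridazine and -0.79 with olanzapine, and lay at 0.0008 with chlorpromazine and 0.0125 with quetiapine. Cyp27a1, sterol 27-hydroxylase, was at 0.90 with thioridazine and between 0.01 and 0.16 elsewhere, while Cyp39a1 was at 0.51 with olanzapine and between -0.12 and 0.10 elsewhere. Cyp8b1, of bile acid synthesis, was below vehicle on each array, between -0.56 and -0.26. Of the steroid-making enzymes, Cyp11a1 lay between -0.26 and 0.11 and Cyp17a1 between 0.12 and 0.44. Cyp11b2, aldosterone synthase, was the lowest member with thioridazine at -1.96 and with olanzapine at -2.40, which is 5.27-fold below vehicle; with chlorpromazine it was at 0.54 and with quetiapine at -0.15. Cyp26b1, which breaks down retinoic acid, was at -0.42 with olanzapine, but its 2 features there read -0.85 and 0.02.

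**Figure D3:**
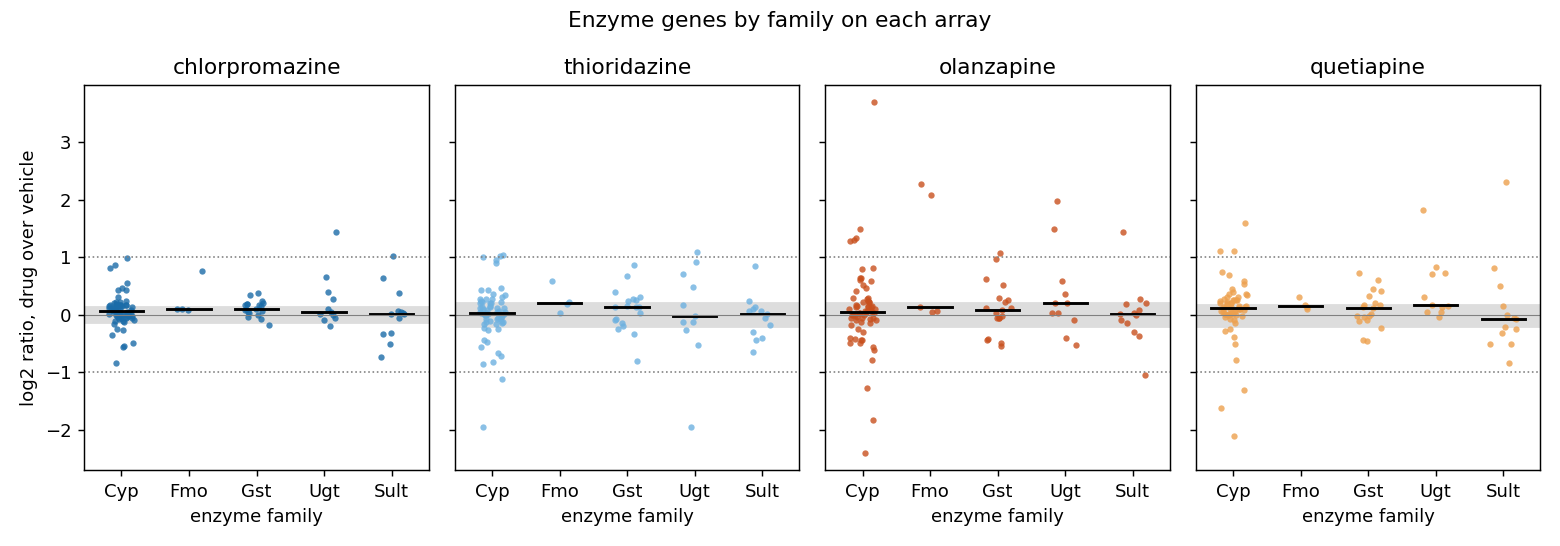
Log2 ratios of drug over vehicle (y axis) of all measured members by enzyme family (x axis), 1 panel per array; black bars are family medians, dotted lines mark 2-fold and the grey band spans the interquartile range of all genes. The olanzapine panel has the widest spread, from -2.40 (Cyp11b2) to 3.69 (Cyp3a13), and Gst members stay within 1.07 of 0 on every array.

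Of 19 glutathione S-transferases 1 was 2-fold from vehicle on any array (Gstm6 with olanzapine, where 7.97% of all genes were), and the medians lay between 0.07 and 0.13. Gsta4, which conjugates the lipid peroxidation product 4-hydroxynonenal, was spotted 10 times, more than any other member. Its mean was 0.16 with chlorpromazine (SD 0.05, 10 spots), -0.20 with thioridazine (SD 0.16), -0.54 with olanzapine (SD 0.18) and -0.03 with quetiapine (SD 0.21). With chlorpromazine all 10 spots were above 0, between 0.08 and 0.25, and with olanzapine all 10 were below, between -1.02 and -0.38, so those arrays do not overlap; the spots are technical repeats of 1 hybridisation and give no error for a drug. Gsta3 was above vehicle on each array, at 0.24, 0.87, 0.62 and 0.61 with chlorpromazine, thioridazine, olanzapine and quetiapine. Gstp1 was at 0.67 with thioridazine and between -0.05 and 0.25 on the others. Gstm1, which is abundant in astrocytes, lay between -0.02 and 0.41, Gstm5 between -0.50 and 0.04, Gsto1 between -0.25 and 0.18, Gstk1 between -0.05 and 0.20, and Gstt1 between -0.11 and -0.07. Gstt4 ranged more, from -0.81 with thioridazine to 0.97 with olanzapine. The mu-class genes are close in sequence, so a probe may read more than 1 of them.

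**Figure D4:**
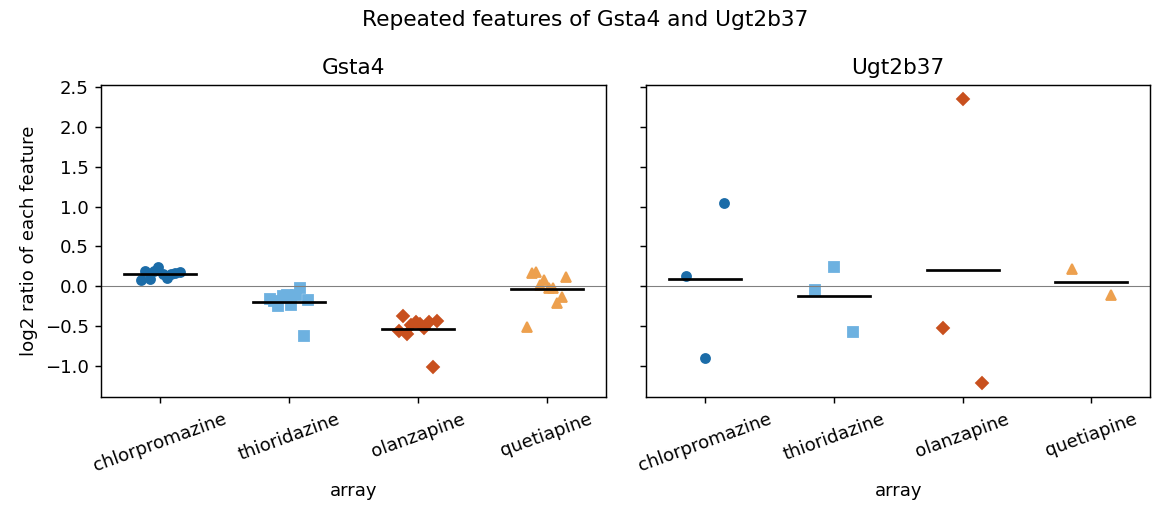
Log2 ratio of each repeated feature (points, y axis) of Gsta4 (10 features) and Ugt2b37 (3, of which 2 had a ratio with quetiapine) on each array (x axis); bars are means. The Gsta4 spots lie close together, whereas those of Ugt2b37 run from -1.21 to 2.35 with olanzapine.

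Among the glucuronosyltransferases, Ugt1a6b, of the family that conjugates small phenols, was above vehicle on all 4 arrays and 2-fold above on 3, at 1.44 with chlorpromazine, 0.485 with thioridazine, 1.49 with olanzapine and 1.81 on the quetiapine array. Genes of the Ugt1a locus share their last exons, so its single feature may read other Ugt1a transcripts. Ugt2b1 was at -0.09, 0.91, 1.98 and 0.83 in the same order and Ugt3a1 at 0.40, 1.09, 0.36 and 0.73. Ugt3a2 was on the other side with thioridazine and olanzapine, at -0.53 with both, and at 0.01 and 0.16 with chlorpromazine and quetiapine. Ugt8a makes galactosylceramide, the main glycolipid of myelin, and is no drug-metabolising enzyme. It was at 0.65 with chlorpromazine, -1.95 with thioridazine, 0.58 with olanzapine and 0.70 on the quetiapine array. The thioridazine value, 3.85-fold below vehicle, stands alone below 0. On that array the 6 measured oligodendrocyte markers lay between -0.20 (Mbp) and 0.26 (Olig1), with a median of 0.12. In tissue RNA fewer cells of a type and less RNA per cell cannot be told apart. Ugt2b37 has 3 features that disagree, so its means, between -0.13 and 0.20, are not read further.

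Sulphotransferases gave the highest member on the quetiapine array. Sult1a1, which sulphates phenols, was at 2.31 there, 4.95-fold above vehicle and rank 17 of 16240 genes. It was at 0.63 with chlorpromazine, -0.05 with thioridazine and 0.08 with olanzapine. Sult2a2, of the hydroxysteroid sulphotransferases, was above vehicle on each array, at 1.01 with chlorpromazine, 0.84 with thioridazine, 1.44 with olanzapine and 0.82 on the quetiapine array. Sult2a8 was below vehicle except with olanzapine, at -0.73, -0.40, 0.03 and -0.83 in the same order. Sult1d1, which sulphates catecholamines in mouse, was at 0.01 with chlorpromazine, -0.65 with thioridazine, -1.05 with olanzapine and -0.25 on the quetiapine array. Sult5a1 was below vehicle on each array, between -0.50 and -0.31. Sult4a1, the brain sulphotransferase with no settled substrate, was at 0.39 and 0.07 with chlorpromazine and thioridazine and at -0.15 and -0.22 with olanzapine and quetiapine. Oestrogen sulphotransferase Sult1e1 and the cholesterol sulphotransferase Sult2b1 stayed between -0.07 and 0.27. The 55 members that the naming rule leaves out lay between -0.85 and 1.29; the rule names the extremes, so these are nearer 0 by construction.

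Several members far above vehicle with olanzapine, Cyp3a13, Cyp3a25, Cyp2e1, Fmo5 and Ugt2b1, are best known from liver. They were picked for their values. Other members known from liver lay near or below vehicle on that array, among them Cyp7a1 at 0.02, Cyp8b1 at -0.30 and Cyp2a4 at -0.61. Of all 114 measured members 69 (60.5%) were above 0 with olanzapine and 45 below, while 52.2% of all genes were above 0. On that array 4.64% of all genes were at least 2-fold above vehicle. Hepatocyte markers were above vehicle on the olanzapine array. Of 6 measured, 6 were above 0 with olanzapine and 3 were at least 2-fold above, with a median of 0.82 and a range from 0.05 (Tat) to 1.72 (Apoa2); albumin (Alb) was at 0.18. One of them, Ttr, is also a marker of choroid plexus. Their medians on the other arrays were -0.135 with chlorpromazine, 0.25 with thioridazine and 0.12 with quetiapine. Their part in the olanzapine ratios was not tested. For Cyp1b1, markers of leptomeninges and perivascular fibroblasts had medians of 0.06, 0.40, 0.23 and 0.13 with chlorpromazine, thioridazine, olanzapine and quetiapine, and those of endothelium and pericytes 0.17, 0.05, -0.03 and 0.085. The endothelial markers did not go one way: the glucose transporter gene Slc2a1 was at 0.62, 1.34, 0.48 and 1.751 in that order, and Tek at 0.17, 0.04, 0.12 and -2.31. Their part in the Cyp1b1 ratios was not tested.

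For a change common to the drugs, limma compared each gene's mean over the 4 arrays with 0, across 16139 genes. No member passed at an adjusted p of 0.05; the test called 24 genes in all, 0.149%. An unadjusted p under 0.05 was found for 25 of 110 members (22.7%), 21 above 0 and 4 below, against 26.2% of all genes (11.9% above and 14.2% below). The total was below the share over all genes, while by direction 19.1% of members were above 0 and 3.64% below; no test of that split was made. This mean also holds any dye bias and any deviation of a shared vehicle RNA, which cannot be told apart from the drugs here. The ordinary t statistic and robust moderation also called 0 members. Each had 25 members at an unadjusted p under 0.05, with no share over all genes counted beside it. Leaving out an array lowered that count to 18 without chlorpromazine (16.4%, against 21.9% of all genes) and 13 without thioridazine (11.8%, against 15.4%). It was 20 without olanzapine (18.2%, against 19.2%) and 17 without quetiapine (15.5%, against 19.2%). The member nearest to passing was Sult2a2, whose mean was 1.03 (SE 0.12, limma adjusted p = 0.0647), above vehicle on 4 of 4 arrays. With arrays scaled to one spread the lowest was that of Cyp2d34, with a limma adjusted p of 0.0505. As deposited, Cyp2d34 had a mean of 0.73 (SE 0.11, limma adjusted p = 0.0673) and Ugt1a6b of 1.31 (SE 0.23, limma adjusted p = 0.0871). Lower means with a small spread were those of Sult5a1 at -0.37 (SE 0.06, limma adjusted p = 0.0843) and Cyp8b1 at -0.38 (SE 0.07, limma adjusted p = 0.0979). Cyp3a13 had the highest mean, 1.35, but an SE of 0.63 (limma adjusted p = 0.242), and Cyp11b2 the lowest, -0.99, with an SE of 0.56. The next highest means were Fmo5 at 0.98, Cyp1b1 at 0.94, Ugt2b1 at 0.91 and Sult1a1 at 0.74. Next lowest were Cyp2a4 at -0.81, Sult1d1 and Sult2a8 both at -0.49, Cyp7b1 at -0.40 and Cyp2j13 at -0.38, none of which passed. Single arrays moved several of these means by over 1.5 times. Without olanzapine Cyp3a13 was at 0.57, Fmo5 and Ugt2b1 at 0.55, Cyp11b2 at -0.52, Sult1d1 at -0.30 and Cyp2j13 at -0.08. Without quetiapine Sult1a1 was at 0.22 and Cyp2a4 at -0.54, and without thioridazine Cyp7b1 was at -0.26. Without chlorpromazine Cyp11b2 was at -1.50, and Cyp2j13 was at -0.59 without quetiapine.

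The chemical classes were compared as the mean of chlorpromazine and thioridazine, which share the phenothiazine ring, minus that of olanzapine and quetiapine, which have an azepine ring. Doses in mg/kg differ with the class, so the 2 cannot be told apart. No member of 110 passed with limma, and none of 16139 genes did (0%); an unadjusted p under 0.05 was found for 2 members (1.82%) against 2.84% of all genes, 1 above 0 (1.63% of all genes) and 1 below (1.21%). The ordinary t statistic called 0 members with 4 at an unadjusted p under 0.05, and robust moderation 0 with 2. Shares over all genes were not counted under these settings. Leaving out an array gave 6 without chlorpromazine (3.01% of all genes), 6 without olanzapine (5.69%), 7 without quetiapine (8.19%) and 2 without thioridazine (2.39%). The members' 95% intervals reached a median of 0.55 log2 units to each side, so smaller differences could not be seen for many members. Gsta1 averaged 0.17 over the phenothiazines and -0.44 over the azepine-ring drugs and so differed by 0.61 (95% interval 0.17 to 1.05, limma adjusted p = 0.999). Cyp2f2, the other of the 2 and named for that, differed by -0.83, and Sult4a1 by 0.41 (95% interval -0.07 to 0.88). The largest difference above 0 was that of Cyp4b1 at 1.24 (95% interval -0.04 to 2.52), with Cyp2a4 at 0.62. Below 0 lay Cyp1b1 at -0.97 (95% interval -2.06 to 0.11), Gstt4 at -1.08 and Ugt2b1 at -0.99. Of the 12 highest and lowest differences, that of Gsta1 alone moved by less than 1.5 times whichever array was left out. Nearest to 0, Cyp4b1 was at 0.80, Cyp1b1 at -0.49 and Sult4a1 at 0.25 without chlorpromazine, Gstt4 at -0.50 without thioridazine, Ugt2b1 at -0.42 without olanzapine and Cyp2a4 at 0.11 without quetiapine.

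For the other 5 of the 12 the sign turned when 1 array was left out. Cyp3a13 differed by -1.52 (95% interval -4.83 to 1.78) and by 0.053 without olanzapine, and Sult1a1 by -0.90 and by 0.21 without quetiapine. Ugt8a differed by -1.29 and by 0.0083 without thioridazine. Cyp1a2 differed by 1.06 (95% interval -2.63 to 4.75) and by -0.74 without quetiapine. Cyp11b2 differed by 0.57, by -0.68 without chlorpromazine and by -0.55 without olanzapine.

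**Figure D5:**
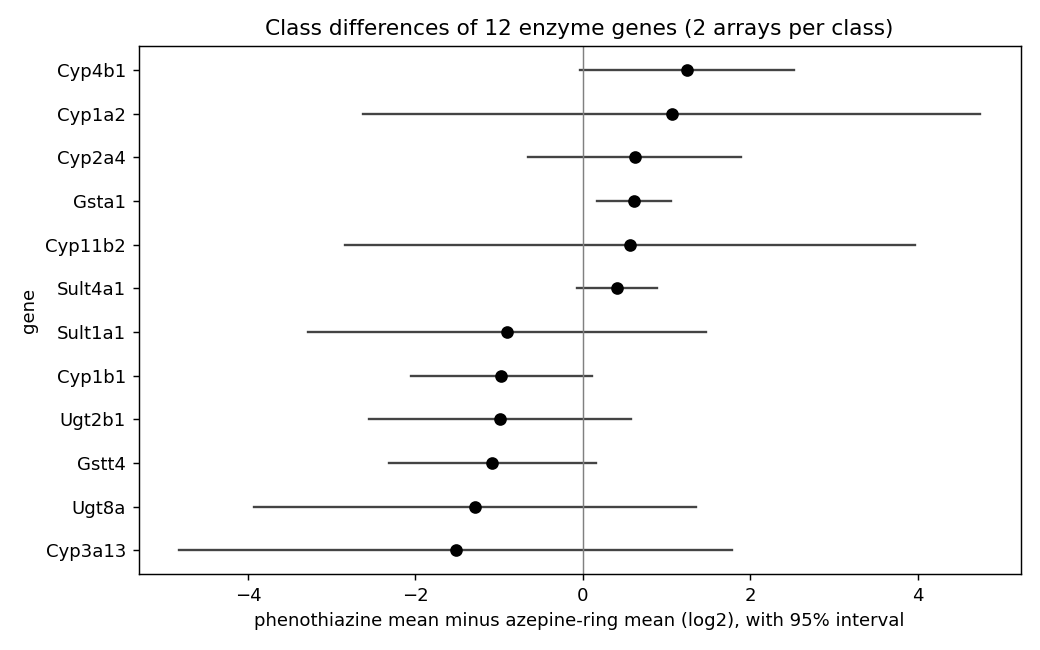
Phenothiazine mean minus azepine-ring mean (log2, points) with its 95% limma interval (lines) for the 12 members with the 6 highest and 6 lowest differences, 2 arrays per class. The interval of Gsta1, from 0.17 to 1.05, is the one that leaves out 0, and those of Cyp1a2, Cyp11b2 and Cyp3a13 are the widest.

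Chlorpromazine and thioridazine are the pair at a matched dose, and they differ in the side chain of the ring nitrogen and in the ring substituent. Each has 1 array, so their differences have no test or interval. Of 111 members 4 were at least 2-fold apart (3.60%, against 4.38% of all genes), all of them higher with chlorpromazine. These were Ugt8a, apart by 2.60, Cyp11b2 by 2.50, Cyp4f14 by 1.55 and Gstt4 by 1.15. Olanzapine and quetiapine, at unequal doses, were 2-fold apart for 10 of 111 members (9.01%, against 8.46% of all genes), 7 higher with olanzapine. For Cyp3a13 the values were 3.69 and 0.54, for Cyp1a2 1.49 and -2.11, and for Sult1a1 0.08 and 2.31. Directions were not counted over all genes for either pair of drugs, so these splits by direction have no background share.

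The wider pathway was read from 3 lists of genes outside the rule. Of 18 regulators of drug-metabolism genes 0 passed in the mean of the arrays with limma, and 7 (38.9%) had an unadjusted p under 0.05, against 26.2% of all genes; the list's median was 0.01, as over all genes. The CCAAT-binding factor gene Cebpb was at 0.44, -0.10, 0.88 and 1.02 with chlorpromazine, thioridazine, olanzapine and quetiapine, and Nfe2l2, which encodes the master regulator of antioxidant genes, at -0.28, -0.04, -0.14 and -0.09. Of 15 partner and cofactor enzymes 0 passed and 6 (40.0%) had an unadjusted p under 0.05, with a median of -0.02. Among them were enzymes that make the donors of phase II. Ugdh, which makes UDP-glucuronic acid, was evenly below vehicle at -0.35, -0.30, -0.36 and -0.35. Papss1 and Papss2, which make the sulphate donor, had means of -0.35 and -0.46. Papss2 was uneven, at -0.50, -0.44, 0.0053 and -0.91 in the same order, and so near vehicle with olanzapine. Of the makers of glutathione, the donor of the Gst enzymes, Gclc was above vehicle on each array, at 0.40, 0.22, 0.23 and 0.04, and Gclm and Gss had means of 0.04 and -0.02. Of 40 other phase I and phase II enzymes measured on all arrays 0 passed and 9 (22.5%) had an unadjusted p under 0.05, with a median of 0.04. Nnmt, a methyltransferase of nicotinamide, had the highest mean of these, 0.94, with 0.14, 1.58, 0.75 and 1.28 on the 4 arrays in the same order. Aldh9a1 was at 1.98 with olanzapine and between 0.01 and 0.22 elsewhere.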

How the data were processed

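The data are log10 ratios of the 2 channels of 4 Agilent mouse oligonucleotide arrays, 1 per drug. The authors used Feature Extraction 7.1 and normalised the dyes by LOWESS on rank-consistent features, per the labels. The scale and direction of the deposited log10 values are the likely ones and are not stated; the centring is unstated too, with array medians of 0, 0, 0.00376 and 0 for chlorpromazine, thioridazine, olanzapine and quetiapine. Values of exactly 0 (198 to 594 per array) were taken as missing. Ratios were converted to log2 and features of a gene averaged, after updating platform symbols through RefSeq by Entrez identifier (18175 of 18218 features with 1 symbol; 16 features with several symbols were left out and 4159 had none). Tests used limma 3.58.1 in R 4.3.3 on the 16139 genes measured on all 4 arrays, with Benjamini-Hochberg adjustment over all of them at 0.05; scripts were tested on simulated data. No label makes the arrays replicate animals; p-values reflect only how the 4 differ, which may in part be technical. No read depth applies; the number of arrays, spot noise and the single feature of 109 members limit precision.

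Members and lists were chosen with earlier results of these data known. Named are members passing a test (0), the 8 highest and 8 lowest means, the 6 highest and 6 lowest class differences, the 3 highest and lowest on each array, the extremes of each family, those 2-fold on 3 arrays, and 2 role lists (drug metabolism, brain function). Marker lists served for context; neurons, astrocytes, microglia, choroid plexus and olfactory epithelium had medians between -0.44 and 0.27 on every array. Alternatives were zeros kept, features tested singly, centring or scaling of arrays, log2 reading, a 1.5-fold limit, robust or no moderation, each array left out, and current symbols.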

Additional observations from a re-analysis of the deposited data

How the results depend on the processing

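No member passed either limma test under any alternative run, including each array left out (0 to 0 in both tests). The counts of members at least 2-fold from vehicle did depend on settings. At a limit of 1.5-fold chlorpromazine had 10 (6.91% of all genes), thioridazine 20 (13.4%), olanzapine 24 (17.4%) and quetiapine 19 (12.6%). With arrays scaled to one spread chlorpromazine had 7 (3.86% of all genes) and thioridazine 3 (3.5%). If the deposited values were log2 already, the counts would be 0, 0, 1 and 0 in the same order. The shares of all genes under that reading were not counted. Between the phases, medians differed by up to 0.074 with features counted singly (thioridazine, from -0.018). Counted so, Gsta4 alone enters phase II as 10 features, all below 0 with thioridazine. Leaving out 1 array turned the sign of the class difference of 5 members, none of which passed: Cyp1a2 to -0.74 without quetiapine (highest 2.86), Cyp11b2 to -0.68 without chlorpromazine and -0.55 without olanzapine (highest 1.82), Cyp3a13 to 0.053 without olanzapine (lowest -3.10), Ugt8a to 0.0083 without thioridazine (lowest -2.59) and Sult1a1 to 0.21 without quetiapine (lowest -2.02). Of 280 alternative values of named means and class differences, 6 turned sign and 0 crossed the threshold; the nearest was the mean of Cyp2d34, with a limma adjusted p of 0.0505 under scaling. No paired analysis was possible because each drug has 1 array and the labels carry no replicate numbers. With 4 arrays, no swapped dyes and no intensities, dye bias, a common vehicle and dim probes could not be measured.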
